A study of Mus musculus with 39 samples.

Results

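The genes of the proteasome were followed across the liver transcriptome of mice that breathed little oxygen for a few hours. Members were all gene symbols of the deposited table made of Psm, 1 letter from a to g and a number: 47 of its 11873 genes. They cover the 20S core particle (Psma and Psmb genes), the ATPase base and the other subunits of the 19S regulatory particle (Psmc and Psmd), the activators (Psme), the inhibitor Psmf1 and the assembly chaperones of the core (Psmg). Of the 47, 46 passed the filter on low counts and were tested among 9483 genes. The exception was Psma8, an alpha subunit known from male germ cells, with 56 counts over all libraries.

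Livers came from C57BL/6 mice aged 3 to 5 months that carried Alb-Cre, a recombinase driven by the albumin promoter and so active in hepatocytes. HLKO mice carried floxed Hif1a (Hif1a fl/fl), which encodes the oxygen-regulated factor HIF-1 alpha. BLKO mice carried floxed Bmal1 (Bmal1 fl/fl; gene symbol Arntl), a core clock factor, and Alb mice carried Alb-Cre alone, so no group lacked the recombinase. Each mouse breathed 6% or 21% oxygen for 4 h from circadian time 16 (CT16) or 4 (CT4), on a day without light and with food always present. This gave 12 groups of 3 libraries, named by genotype, time, oxygen and a letter, such as Alb CT4 21% A. Nothing in the labels says more of how the 3 livers of a group were obtained, so p-values measure the spread between these samples.

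The proteasome degrades proteins that carry ubiquitin chains. Its core is a barrel of stacked rings: the outer alpha rings gate the entrance, and the inner beta rings hold the proteolytic sites, which Psmb5, Psmb6 and Psmb7 provide in most cells. Interferon-induced Psmb8, Psmb9 and Psmb10 replace them in the immunoproteasome, which favours peptides that class I molecules present. When proteasome activity falls short, the factor NFE2L1 together with small MAF proteins raises the transcription of proteasome genes through antioxidant response elements, and the liver depends on it.

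The 5 promoter windows belong to members of the hypoxia and HLKO results, and each holds a motif marked below. Other members of those results are not printed, among them Psmf1 and Psma5, whose windows hold neither motif. Each printed window runs from 250 bases before to 50 after a RefSeq start (GRCm38.p6), 5′ to 3′ on the gene's strand. In Psma1 (chr7:114276067-114276366, minus strand), Psma2 (chr13:14612992-14613291, plus) and Psmd14 (chr2:61711444-61711743, plus), capitals mark the CCAAT box or its reverse complement. In Psmd14 a match on each strand overlaps. In Psmb5 (chr14:54617946-54618245, minus) and Psmb6 (chr11:70525107-70525406, plus), capitals mark the antioxidant response element core, TGACNNNGC.
Psma1: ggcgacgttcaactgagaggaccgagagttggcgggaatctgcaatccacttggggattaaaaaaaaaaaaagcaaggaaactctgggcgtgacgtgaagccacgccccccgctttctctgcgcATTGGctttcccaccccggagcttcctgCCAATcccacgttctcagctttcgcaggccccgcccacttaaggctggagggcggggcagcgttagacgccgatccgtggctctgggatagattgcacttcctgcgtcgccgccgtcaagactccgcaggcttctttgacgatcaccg
Psma2: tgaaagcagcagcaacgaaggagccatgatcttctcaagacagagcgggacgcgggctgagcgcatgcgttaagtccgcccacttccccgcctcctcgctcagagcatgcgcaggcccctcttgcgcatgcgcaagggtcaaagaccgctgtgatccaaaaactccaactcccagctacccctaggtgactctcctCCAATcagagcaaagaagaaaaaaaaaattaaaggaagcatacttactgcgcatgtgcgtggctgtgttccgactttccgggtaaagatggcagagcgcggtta
Psmd14: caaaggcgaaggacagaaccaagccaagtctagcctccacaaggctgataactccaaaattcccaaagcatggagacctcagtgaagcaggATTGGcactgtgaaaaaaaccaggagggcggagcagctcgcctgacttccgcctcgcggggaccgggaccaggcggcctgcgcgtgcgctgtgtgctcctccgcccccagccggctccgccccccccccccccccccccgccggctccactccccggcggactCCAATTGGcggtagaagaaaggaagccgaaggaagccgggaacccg
Psmb5: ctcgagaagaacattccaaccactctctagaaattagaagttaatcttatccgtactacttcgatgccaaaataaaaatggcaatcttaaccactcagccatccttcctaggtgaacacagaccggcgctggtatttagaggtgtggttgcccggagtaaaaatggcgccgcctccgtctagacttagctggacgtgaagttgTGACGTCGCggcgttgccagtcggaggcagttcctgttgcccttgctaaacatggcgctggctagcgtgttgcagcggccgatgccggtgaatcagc
Psmb6: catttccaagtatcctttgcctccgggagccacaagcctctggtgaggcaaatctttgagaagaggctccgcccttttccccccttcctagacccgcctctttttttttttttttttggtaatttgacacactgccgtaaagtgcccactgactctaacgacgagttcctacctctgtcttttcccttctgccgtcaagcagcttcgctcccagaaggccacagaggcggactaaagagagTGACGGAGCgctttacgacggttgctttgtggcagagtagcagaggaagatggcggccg
Promoters of 39 of the 47 members were matched, in 42 windows. TGACNNNGC, searched on both strands, was in 6 of 42 member windows (14.29%) and in 12.39% of all 32851 windows. CCAAT was in 13 of 42 member windows (30.95%) and in 37.41% of all windows, so neither was more frequent in these windows by more than 2 percentage points. Both members that fell under hypoxia in the mean over all pairs, Psmb5 and Psmb6, held the element core, as did 1 of 8 matched members that rose and 3 of 29 matched members that were not called in that contrast. CCAAT was in 4 of 12 matched members that were lower in HLKO livers in the mean over pairs and in 8 of 25 that were not called there, and the element core in 2 of 12 and 3 of 25. A match describes letters and not a site of binding.

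Library totals ran from 1717589 to 5196957 counts. Hif1a, whose deleted exon is not given in the sources used here, spanned 0 to 9.57 CPM (counts per unit of library size, with sizes scaled by trimmed means) in HLKO libraries and 1.89 to 15.03 CPM in Alb libraries. Arntl lay between 10.5 and 14.5 CPM in BLKO at CT16 and between 15.1 and 22.1 CPM in Alb at CT16, but at CT4 it did not fall below the Alb range (6.07 to 13.4 CPM in BLKO, 2.44 to 13.2 CPM in Alb). Counts over whole genes therefore do not check either deletion. Hepatocyte markers dominated all libraries, at a summed 62075 to 115952 CPM. Libraries also differed in how counts followed transcript GC content: genes in the highest GC quartile against those in the lowest stood 0.28 higher (log2 scale, group mean) in HLKO CT4 21% and 0.53 higher in HLKO CT16 6%, against -0.20 in Alb CT4 21% and -0.05 in Alb CT16 6%. The steepest library was HLKO CT16 6% A (0.88), which is also the library with the lowest total, and a correction for this trend is given beside the main results that involve HLKO.

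Over all 36 libraries the summed level of the 47 members was lowest at 4178 CPM (BLKO CT4 6% B). It was highest at 4946 CPM (Alb CT16 6% C). In BLKO livers under 6% oxygen it ran from 4178 to 4478 CPM at CT4 and from 4811 to 4839 CPM at CT16. In Alb livers under 21% it was higher at CT4 (4681 to 4915 CPM, against 4590 to 4629 CPM). The core sum (alpha ring and standard beta subunits) at CT4 averaged 1897 CPM under 6% and 2032 CPM under 21% in HLKO livers. It averaged 1932 and 2058 CPM in BLKO and 1956 and 2130 CPM in Alb livers. At CT16 only the Alb average was higher under 6% (2058 against 2037 CPM). The alpha ring was lowest in HLKO livers (median 379 CPM, range 308 to 461 over 12 libraries), against 433 CPM in Alb livers (404 to 494). None of these sums was corrected for transcript GC. The 3 immunoproteasome genes together had a median of 144 CPM in BLKO livers (125 to 176) and 195 CPM in Alb livers (125 to 273), with overlap between genotypes. The activators spanned 393 to 533 CPM and the 11 non-ATPase subunits of the 19S particle 1083 to 1276 CPM.

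**Figure D1:**
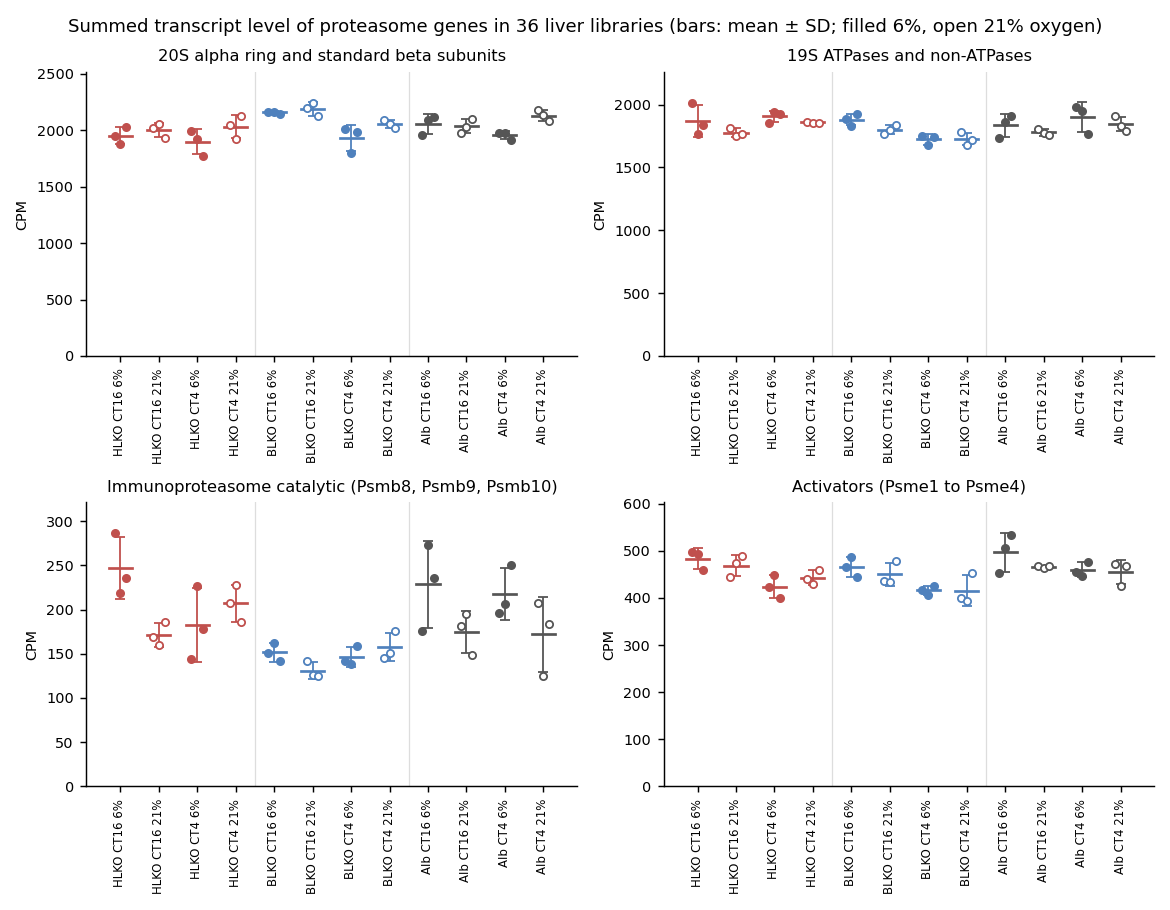
Summed CPM of 4 groups of proteasome genes (vertical axes, from 0) in 12 groups of livers (horizontal axes); points are libraries (filled 6%, open 21% oxygen), bars the mean ± SD of 3. Core sums span 1775 to 2240 CPM and 19S sums 1675 to 2011 CPM, while the immunoproteasome sum spans 125 to 287 CPM.

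Within that sum, members differed widely in abundance. Per kilobase of the longest annotated transcript, the catalytic subunit gene Psmb6 stood highest at 464 CPM per kb (mean of 36 libraries), followed by the structural beta subunits Psmb4 at 278 and Psmb3 at 231 CPM per kb. The PA28 alpha activator gene Psme1 reached 208 CPM per kb. The lowest tested members were Psmf1 at 2.00, the chaperone gene Psmd9 at 2.37 and the ATPase gene Psmc6 at 3.74 CPM per kb. Subunits of one ring, present once each per ring in the protein, thus differed in counts per kb: in the alpha ring, Psma7 stood at 146 and Psma3 at 5.80 CPM per kb. Their transcripts have 51.3% and 40.8% GC, and the part of GC or of the transcript chosen in these levels was not tested. Length scaling assumes reads along whole transcripts, which the sources used here do not state. Group means varied most for Psmd9 (2.58 to 9.27 CPM), Psmf1 (3.83 to 10.7 CPM) and Psma1 (16.2 to 40.2 CPM) among tested members.

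The first comparison was 6% against 21% oxygen within each genotype and time. Averaged over the 6 pairs, hypoxia raised 10 of 46 members, against 19.1% of all tested genes, and lowered 2, against 16.9% of all tested genes. After GC correction 8 were higher and 5 lower, 10 of them among the first 12, beside 38.2% of all genes called in either direction. The added calls Psma7 (-0.13), Psmb3 (-0.13) and Psmg3 (-0.22) were lower. Called means an adjusted p under 0.05 in edgeR's quasi-likelihood test with Benjamini-Hochberg adjustment over all genes, and this average was added after the single comparisons had been seen. The median change was -0.01 over members and 0.01 over all genes (log2). Psmf1, Psmd9 and the immunoproteasome genes Psmb9 and Psmb10 moved up, while the standard catalytic genes Psmb5 and Psmb6 moved down. The remaining immunoproteasome gene Psmb8 and the remaining standard catalytic gene Psmb7 were not called. The summed immunoproteasome genes averaged lower under 6% than under 21% oxygen in HLKO at CT4 (183 and 207 CPM) and BLKO at CT4 (146 and 158 CPM). In the other pairs that average was higher under 6%.

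Psmf1 encodes PI31, a protein that inhibits the 20S core in vitro and aids proteasome transport. It lies at chr2:151715812-151744186 (minus strand; GRCm38, as are all positions of genes). In HLKO livers at CT16 it stood at 6.30, 14.0 and 6.74 CPM under 6% oxygen and at 4.98, 4.27 and 4.41 CPM under 21%. At CT4 the HLKO values were 10.2, 6.59 and 11.2 CPM under 6% oxygen and 4.79, 6.65 and 6.93 CPM under 21%. The oxygen levels separated at CT16 and overlapped at CT4. In BLKO livers at CT16 Psmf1 stood at 10.6, 10.9 and 10.4 CPM under 6% oxygen and at 6.44, 7.53 and 7.51 CPM under 21%. BLKO livers at CT4 gave 9.83, 13.1 and 8.52 CPM under 6% and 1.40, 7.36 and 9.54 CPM under 21%, so 1 control liver lay within the hypoxic range. In Alb livers at CT16 the values were 9.55, 8.27 and 9.19 CPM under 6% and 6.18, 7.11 and 3.42 CPM under 21%. Alb livers at CT4 had 8.96, 11.03 and 9.17 CPM under 6% and 3.88, 3.96 and 3.66 CPM under 21%, the widest gap of the 6 pairs. The mean change was 0.83 ± 0.14 (log2 ± SE, adjusted p = 1.2e-05, edgeR), upward in 6 of 6 pairs, and it kept its call in all 36 fits that left out 1 library.

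Taken singly, only the Alb CT4 pair was called for Psmf1 (1.33 ± 0.35, adjusted p = 0.0134, edgeR), the single call among 46 members where 9.16% of all genes were called. Without Alb CT4 6% B this adjusted p was 0.0546. The other 5 pairs ran from 0.55 ± 0.33 in HLKO at CT4 to 1.05 ± 0.36 in HLKO at CT16. The hypoxia response differed from that in Alb livers for 0 members in HLKO at CT4 (1.58% of all genes; 10 at an unadjusted p under 0.05) and at CT16 (0.875%; 2), and for 0 in BLKO at CT4 (0.190%; 0) and at CT16 (0.116%; 2). DESeq2 called 1 in the first of these 4 and 0 in the others. For Psmf1 the adjusted p-values of these differences were 0.407, 0.902, 0.737 and 0.979.

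Psmd9 (chr5:123169413-123250131, plus strand) encodes p27, a chaperone that helps assemble the ATPase base. In HLKO livers at CT4 it had 9.15, 8.24 and 10.4 CPM under 6% oxygen and 0.958, 3.49 and 3.30 CPM under 21%. All 3 hypoxic livers exceeded all 3 controls there. The change was 1.72 ± 0.41 (adjusted p = 0.00364, edgeR), kept in all 6 fits without 1 library and after GC correction (1.72, adjusted p = 0.00363). The other 5 pairs ran from 0.13 ± 0.38 to 0.68 ± 0.42 with none called, and the mean of the 6 was 0.62 ± 0.16 (adjusted p = 0.00231). Psmd9 overlaps Hpd, an abundant liver gene on the opposite strand, over 10921 bases. Hpd held 273507 counts in all libraries against 721 of Psmd9, and the sources used here do not say whether strand was used in counting, so the Psmd9 level is uncertain. Hpd itself differed by -0.09 ± 0.14 between the oxygen levels in HLKO at CT4 (adjusted p = 0.725).

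Psmb5 (chr14:54614119-54618022, minus strand) carries the chymotrypsin-like site, the target of bortezomib. At CT4 it stood at 112, 109 and 92.9 CPM in HLKO livers under 6% oxygen and at 149, 132 and 146 CPM under 21%. In BLKO livers at CT4 it had 120, 108 and 109 CPM under 6% and 146, 132 and 118 CPM under 21%, and in Alb livers at CT4 111, 125 and 105 CPM under 6% and 139, 136 and 126 CPM under 21%. Oxygen levels thus did not overlap at CT4 in HLKO and Alb livers but did in BLKO livers, where the lowest control was below the highest hypoxic value. At CT16 they overlapped in every genotype, at 106 to 156 CPM under 6% and 119 to 186 CPM under 21%. Its group mean was lower in 6 of 6 pairs (mean -0.21 ± 0.06, adjusted p = 0.00467, edgeR), and HLKO at CT4 was the only pair called (-0.44 ± 0.14, adjusted p = 0.0305). That single call was lost without HLKO CT4 21% A or C or without HLKO CT4 6% B or C, with an adjusted p of up to 0.115, and was kept after GC correction (-0.41, adjusted p = 0.0414). Psmb6, the caspase-like site, fell by 0.12 in the mean (SE 0.04, adjusted p = 0.0256), and its group mean was lower in 5 of 6 pairs. After correction for transcript GC the falls were -0.26 for Psmb5 (adjusted p = 0.000357) and -0.18 for Psmb6 (adjusted p = 0.000571). Psmb7, the trypsin-like site, was not called.

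**Figure D2:**
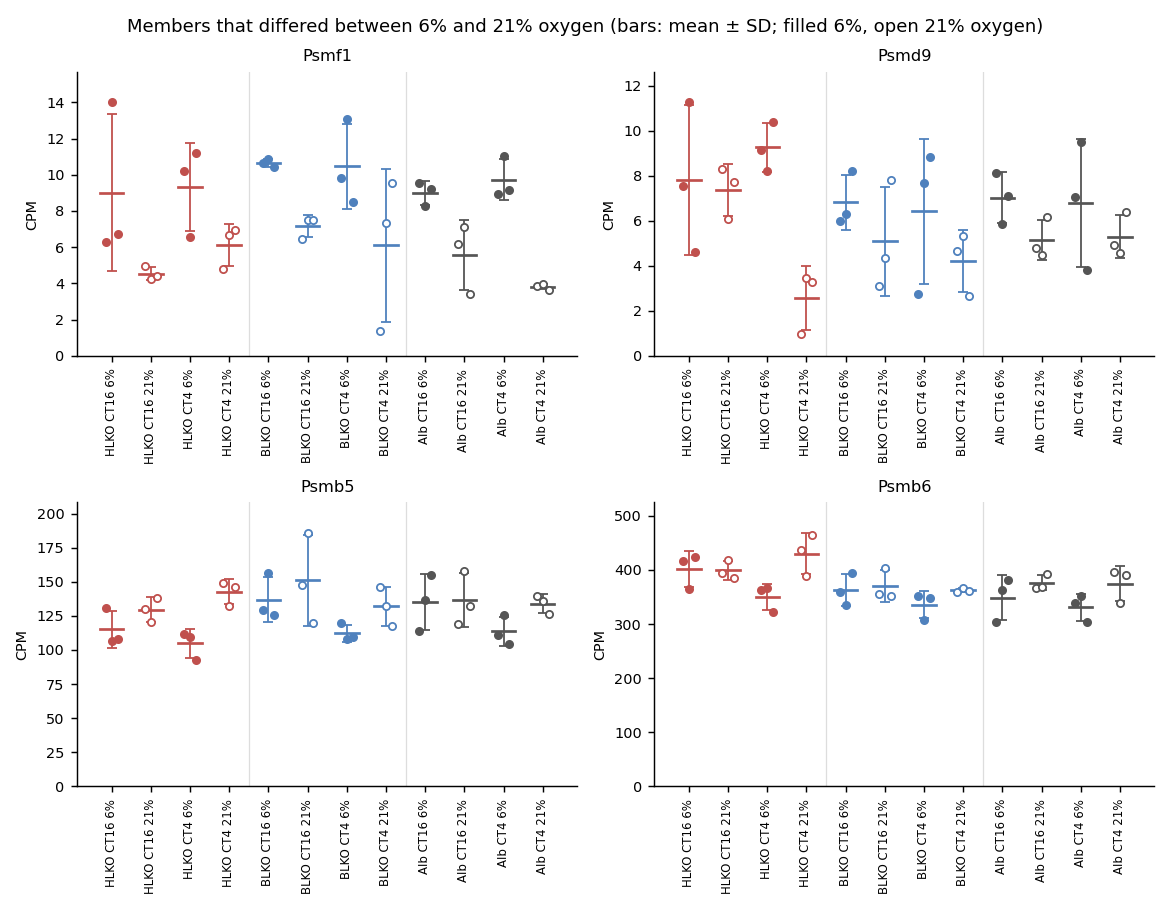
CPM of Psmf1, Psmd9, Psmb5 and Psmb6 (vertical axes, from 0) in 12 groups (horizontal axes); points are libraries (filled 6%, open 21% oxygen), bars the mean ± SD of 3. Filled points of Psmf1 average above open points in each genotype and time, and those of Psmb5 below them.

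The remaining members that rose in the mean over pairs did so by little. They were Psmb9 (0.30 ± 0.10, adjusted p = 0.0140, edgeR), Psmb10 (0.20 ± 0.07, adjusted p = 0.0180), the 19S subunit genes Psmd3 (0.19) and Psmd8 (0.12), the ATPase gene Psmc4 (0.14), the PA28 gamma gene Psme3 (0.16), Psma2 (0.15) and the chaperone gene Psmg2 (0.17). Psmb10 had an adjusted p of 0.0566 and Psmd8 of 0.0738 after GC correction. Psmd8 lost its call without Alb CT16 21% C, HLKO CT16 6% A, BLKO CT4 6% A or BLKO CT16 21% A (up to 0.0571), and Psme3 in 6 of 36 such fits (up to 0.0593): without HLKO CT4 21% B, HLKO CT4 6% C, HLKO CT16 6% B, BLKO CT4 6% B, BLKO CT16 21% A or BLKO CT16 21% B. Psma2 and Psmg2 kept theirs in only 11 of 36 fits each. Of the 8 liver endothelial markers 5 rose with hypoxia in the mean over pairs (summed 174 to 299 CPM under 6%, 152 to 254 CPM under 21%). So did 3 of 8 Kupffer cell markers (125 to 439 CPM and 109 to 242 CPM). By single pairs, Kupffer cell markers were called in Alb at CT4 alone (5 of 8, median 1.09). Their medians were -0.14 and -0.26 in BLKO at CT4 and CT16, and 0.04 to 0.57 in the remaining pairs. In bulk liver a change in the number of such cells and in RNA per cell cannot be told apart, and their part in the member changes was not tested.

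The single pairs gave few other calls. In Alb at CT16, Psma3 was the only call of 46 (-0.67, adjusted p = 0.0275, edgeR; 13.5% of all genes), and it was lost without Alb CT16 21% A or C or Alb CT16 6% A or C (up to 0.176). HLKO at CT4 had 4 calls (14.4% of all genes), HLKO at CT16 had 3 (9.74%), BLKO at CT4 had none (4.63%; 1 member at an unadjusted p under 0.05) and BLKO at CT16 none (9.40%; 2 such members). DESeq2 likewise called 0 members in both BLKO pairs.

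Regulators and partners of the proteasome were read against the same shares of all genes, 19.1% higher and 16.9% lower. Of 9 tested genes of the NFE2L1 axis, 2 rose and 2 fell in the mean over pairs. Nfe2l1 itself fell by 0.50 (SE 0.05, adjusted p = 4.6e-09, edgeR), lower in 6 of 6 pairs. It had 70.9 to 101 CPM in HLKO livers under 6% and 99.6 to 124 CPM under 21%, 40.8 to 59.3 CPM in BLKO livers under 6% and 61.5 to 92.9 CPM under 21%, and 58.6 to 80.6 CPM in Alb livers under 6% and 89.2 to 104 CPM under 21%. At matched times the oxygen levels did not overlap in BLKO and Alb livers, nor in HLKO livers at CT16, and they met in HLKO livers at CT4. Maff, a small MAF partner, rose by 2.95 (adjusted p = 1.2e-15) and Mafk by 1.07 (adjusted p = 3.8e-08), both in 6 of 6 pairs, while Usp15, a deubiquitinase, fell by 0.47 (adjusted p = 0.0263). Among 19 tested ubiquitin and proteasome partners 4 rose and 2 fell. Among them, Zfand2a, which encodes an arsenite-inducible proteasome partner, rose by 0.45 ± 0.10 (adjusted p = 0.000579, edgeR). The 19S subunit genes Sem1 and Adrm1 and the core chaperone gene Pomp were not called, and Usp14 was below the count filter. Among 13 genes of the p97 segregase and its cofactors 3 rose and 1 fell, and among 13 of interferon signalling and antigen presentation the factors Irf1 (-1.42) and Irf9 (-0.88) fell and Tap1, a peptide transporter next to Psmb9, rose (0.35). In either direction 6 of the 19 partners, 4 of the 13 p97 genes and 3 of the 13 interferon genes were called, each a smaller share than that of all genes.

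The second comparison was HLKO against Alb livers. Averaged over both times and oxygen levels, 13 of 46 members were lower in HLKO livers, against 14.3% of all tested genes, and 3 were higher, against 12.3% of all tested genes. This average too was added later. Of the 7 tested alpha ring genes 5 were lower and none was higher. The lower members besides the alpha ring were Psmd14, Psmd12 and Psmd6 of the 19S particle, the chaperones Psmd5 and Psmg1, the activator Psme4 (PA200), the ATPase gene Psmc4 and the beta subunit gene Psmb2. Psmd3, Psmd4 (a ubiquitin receptor) and Psmb6 were higher.

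Psma1 (chr7:114264606-114276118, minus strand), the alpha 6 subunit gene, differed most. At CT16 under 6% oxygen it had 11.3, 17.4 and 19.8 CPM in HLKO livers and 33.1, 27.9 and 27.0 CPM in Alb livers. At CT16 under 21% it had 21.98, 20.1 and 15.8 CPM in HLKO and 30.6, 26.6 and 37.4 CPM in Alb. At CT4 under 6% it had 33.7, 29.9 and 25.6 CPM in HLKO and 40.5, 23.6 and 34.4 CPM in Alb. At CT4 under 21% it had 14.4, 16.8 and 22.4 CPM in HLKO and 40.2, 43.3 and 37.2 CPM in Alb. HLKO livers lay wholly below Alb livers in 3 of the 4 pairs and overlapped them at CT4 under 6% oxygen. The differences were -0.83 ± 0.21 at CT16 under 6% (adjusted p = 0.0130, edgeR), -0.72 ± 0.20 at CT16 under 21% (adjusted p = 0.0396), -0.13 ± 0.19 at CT4 under 6% (adjusted p = 0.813) and -1.15 ± 0.20 at CT4 under 21% (adjusted p = 0.000533). The last held in every fit without 1 library (adjusted p up to 0.0078) and after GC correction (-0.89, adjusted p = 0.000829). The CT16 calls were not kept after that correction (adjusted p = 0.0788 under 6% and 0.0730 under 21%). The call under 6% was also lost without Alb CT16 6% A or HLKO CT16 6% A (up to 0.0918), and the call under 21% without Alb CT16 21% A or C or HLKO CT16 21% B or C (up to 0.226).

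Psma2 (chr13:14613240-14674236, plus strand), the alpha 2 subunit gene, had 40.3, 60.7 and 48.4 CPM in HLKO CT16 6% and 92.4, 84.4 and 81.8 CPM in Alb CT16 6%, without overlap. At CT4 under 21% it had 61.3, 55.5 and 68.0 CPM in HLKO and 84.0, 91.7 and 85.3 CPM in Alb, again without overlap. At CT16 under 21% the values were 48.1, 56.7 and 52.6 CPM in HLKO and 70.1, 64.7 and 77.9 CPM in Alb, also apart. At CT4 under 6% they were 83.8, 79.7 and 77.7 CPM in HLKO and 99.01, 71.9 and 90.8 CPM in Alb, which overlapped. Its mean difference over the 4 pairs was -0.46 ± 0.07 (adjusted p = 2.3e-05, edgeR) and -0.16 after GC correction (adjusted p = 0.0629), in a transcript of 39.4% GC. Psma2 also shares 8943 bases with AW209491 on the same strand, a gene with 1388 counts against its 9238. Psma5 and Psma6 had mean differences of -0.31 ± 0.06 (adjusted p = 0.000231) and -0.45 ± 0.09 (adjusted p = 0.000240). Both were lower in 4 of 4 pairs and stayed called after GC correction (-0.27, adjusted p = 0.000761; -0.34, adjusted p = 0.00114).

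Psmd14 (chr2:61711694-61800376, plus strand) encodes Rpn11, the deubiquitinase that frees substrates of ubiquitin as they enter. It stood at 21.4, 36.5 and 18.1 CPM in HLKO CT16 6% and 57.3, 30.7 and 32.6 CPM in Alb CT16 6%, and at 35.7, 33.5 and 25.0 CPM in HLKO CT16 21% and 55.7, 47.5 and 56.5 CPM in Alb CT16 21%. At CT4 it had 41.2, 39.7 and 32.4 CPM in HLKO and 52.3, 29.7 and 53.2 CPM in Alb under 6%, and 23.5, 28.5 and 28.4 CPM in HLKO and 46.2, 59.4 and 42.4 CPM in Alb under 21%. The genotypes separated under 21% oxygen at both times and overlapped under 6%. The mean difference was -0.64 ± 0.11 (adjusted p = 0.000142, edgeR), and -0.42 after GC correction (adjusted p = 0.000269).

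**Figure D3:**
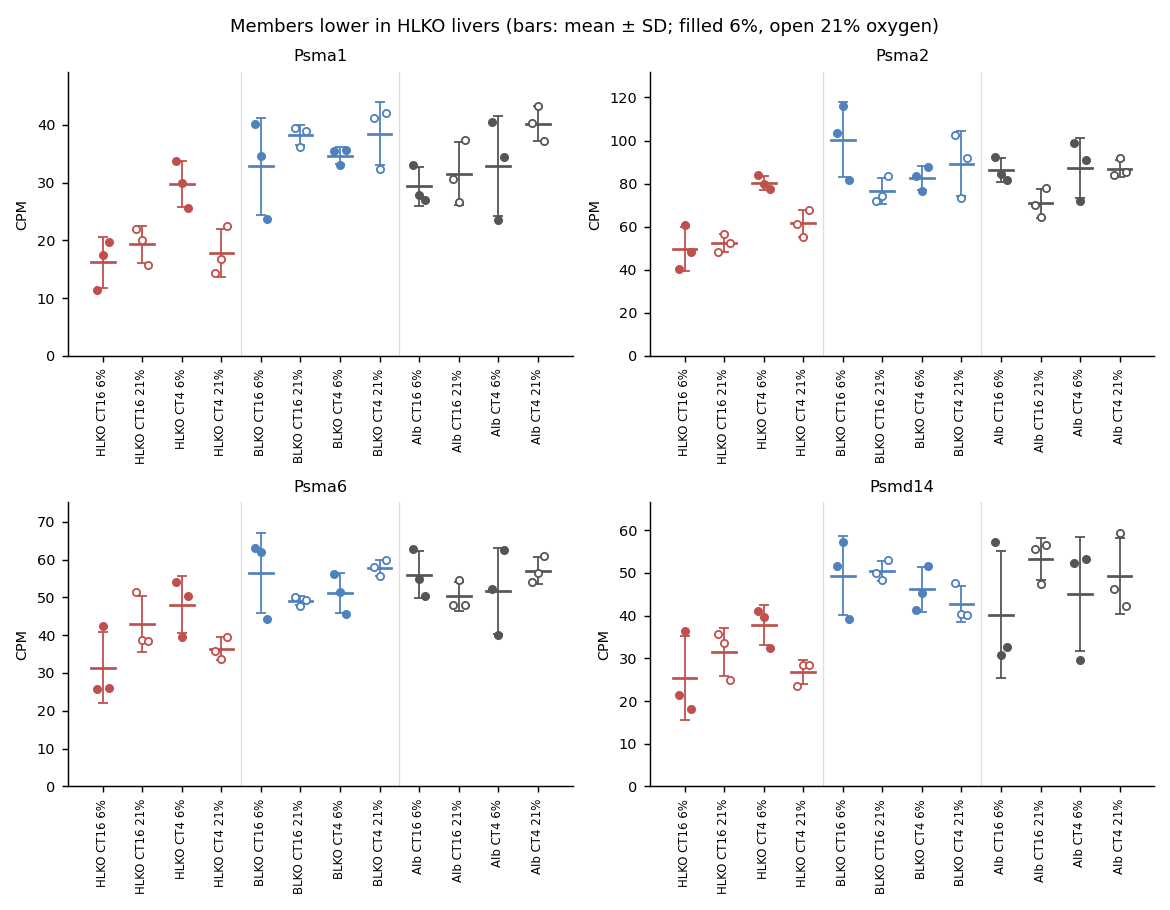
CPM of Psma1, Psma2, Psma6 and Psmd14 (vertical axes, from 0) in 12 groups (horizontal axes); points are libraries (filled 6%, open 21% oxygen), bars the mean ± SD of 3. Psma1 in HLKO livers lies between 11.3 and 22.4 CPM in 3 of the 4 groups and between 25.6 and 33.7 CPM at CT4 under 6% oxygen.

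The members lower in HLKO had GC-poor transcripts (median 46.6%, against 50.4% over all 46 members and 55.8% in the 3 higher ones). The Spearman correlation between GC and the mean HLKO difference was 0.68 over 46 members and 0.45 over 9362 genes; both share the same libraries, and genes are not independent. After correction 11 members were called, 9 lower and 2 higher, all among the first 16, against 19.3% of all genes in either direction. Psma2, Psma4, Psmd5, Psme4 and Psmb6 were no longer called, whereas Psma1, Psma5, Psma6, Psmd14, Psmd12, Psmd6, Psmc4, Psmb2 and Psmg1 were still lower. Before correction 11 of the 16 kept their calls in all 24 fits without 1 library. Psme4 was lost without Alb CT4 21% B (adjusted p = 0.0544), and Psma4, Psmb6, Psmb2 and Psmg1 kept theirs in 13, 12, 7 and 5 of the 24.

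**Figure D4:**
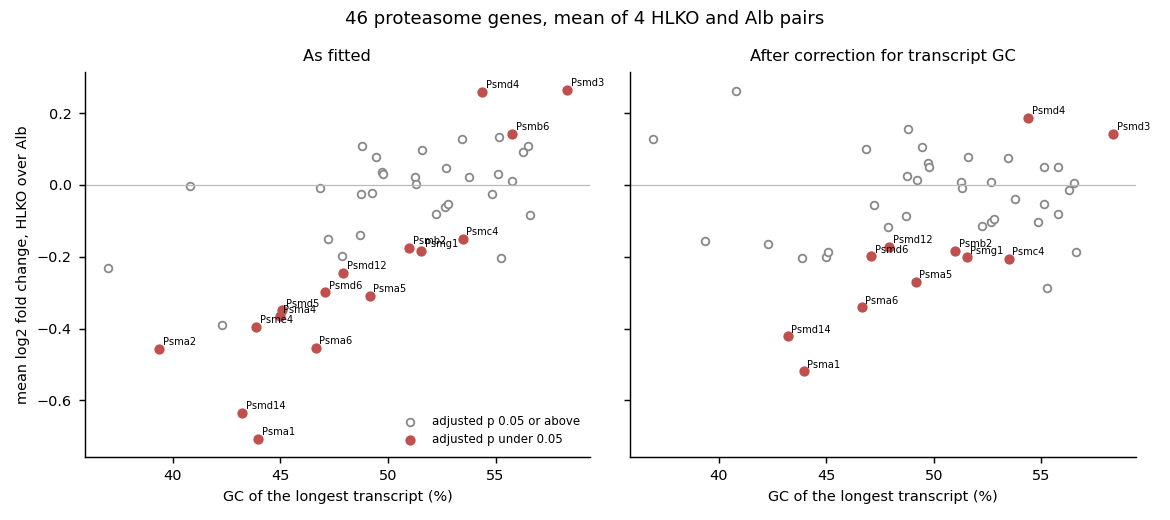
Mean log2 fold change of HLKO over Alb livers (vertical axes) for 46 proteasome genes against the GC content of the longest transcript in percent (horizontal axes), as fitted (left) and after GC correction (right); filled points are called. On the left 16 points are filled and on the right 11; Psma1 is the lowest in both.

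Single pairs of HLKO and Alb livers gave 8 member calls at CT16 under 6% oxygen (9.88% of all genes called), 1 at CT16 under 21% (3.56%), none at CT4 under 6% (3.50%; 4 members at an unadjusted p under 0.05, and 0 called by DESeq2) and 8 at CT4 under 21% (9.71%). At CT16 under 6% Psma2, Psma5, Psma6 and Psmd12 kept their calls in every fit without 1 library. None of the 8 was called when the 2 groups were fitted alone (0.895% of all genes). After GC correction 3 members were called at CT16 under 6% (5.67% of all genes) and 4 at CT4 under 21% (7.67%). At CT4 under 21% Psma1 alone kept its call in every such fit, and without Alb CT4 21% B or HLKO CT4 21% A it was the only member called. In the mean over the 4 pairs, 4 of 7 hepatocyte markers were higher and 1 lower in HLKO livers. In that mean 0 of 8 endothelial and 0 of 8 Kupffer cell markers were called. Taken singly, the pair at CT4 under 6% oxygen had 3 of 8 Kupffer cell markers lower (C1qa, Cd5l and Csf1r). Their median over the 8 was -1.04 there, and the remaining pairs had 0 called. Outside the family, Nfe2l1 (0.30) and Keap1 (0.21), an adaptor of NFE2L2 degradation, were higher in the mean over pairs. Ngly1, the glycanase that activates NFE2L1, was lower in that mean (-0.40). Of the 19 partners 3 were higher, among them Ubqln4 (0.47) and Adrm1 (0.29), and 3 were lower, namely Ubb (-0.84), Ubqln2 (-0.41) and Uchl5 (-0.29). After GC correction Nfe2l1 (0.23), Ubqln4 (0.38), Ubb (-0.90) and Ubqln2 (-0.40) stayed called, while Keap1, Ngly1, Adrm1 and Uchl5 did not (adjusted p = 0.335, 0.213, 0.165 and 0.909). Of the p97 list 3 of 13 were higher and 1 lower, and of the interferon list 2 and 2 of 13, beside 12.3% of all genes higher and 14.3% lower.

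The third comparison was BLKO against Alb livers, which uses the same Alb libraries as the second. Averaged over the 4 pairs, 5 of 46 members were lower, against 10.2% of all genes, and none was higher, against 9.07% of all genes. After GC correction the same 5 were lower and Psmd11 (0.22, adjusted p = 0.0369) and Psmd6 (0.17, adjusted p = 0.0410) were higher. Of all genes 20.8% were then called in either direction. The 5 lower members were the immunoproteasome genes Psmb8 and Psmb10, the PA28 beta gene Psme2, and the ATPase genes Psmc5 and Psmc2. All 5 kept their calls in each of the 24 fits without 1 library.

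Psmb8 (chr17:34197721-34201454, plus strand), the immunoproteasome form of the chymotrypsin-like site, had 66.9, 71.6 and 57.2 CPM in BLKO CT16 6% and 70.9, 145 and 106 CPM in Alb CT16 6%. At CT16 under 21% it had 62.6, 51.2 and 60.3 CPM in BLKO and 82.4, 84.6 and 69.1 CPM in Alb. At CT4 it had 55.1, 57.7 and 66.9 CPM in BLKO and 93.8, 89.7 and 114 CPM in Alb under 6%, and 66.8, 68.7 and 79.3 CPM in BLKO and 93.5, 61.5 and 87.8 CPM in Alb under 21%. The genotypes separated in 2 pairs, CT16 under 21% and CT4 under 6%, and overlapped in the other 2. The mean difference was -0.51 ± 0.10 (adjusted p = 0.000209, edgeR), lower in 4 of 4 pairs. Psmb10 (chr8:105935735-105938444, minus strand), the trypsin-like counterpart, averaged -0.41 ± 0.08 (adjusted p = 0.000382) and was lower in 4 of 4 pairs, from -0.57 ± 0.16 at CT16 under 6% to -0.03 ± 0.17 at CT4 under 21%. Psmb9 (chr17:34181987-34187764, minus strand), which shares 212 bases with Tap1 on the opposite strand, was not called in any BLKO and Alb pair (-0.39 ± 0.23 to -0.07 ± 0.24).

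Psmc5 (chr11:106256154-106263120, plus strand) encodes the ATPase Rpt6. At CT4 it had 75.5, 73.4 and 64.8 CPM in BLKO and 110, 119 and 86.1 CPM in Alb under 6% oxygen, and 63.5, 77.7 and 80.2 CPM in BLKO and 110, 91.7 and 105 CPM in Alb under 21%. No BLKO liver reached an Alb liver at CT4, whereas at CT16 the ranges overlapped (83.9 to 110 CPM in BLKO, 86.1 to 121 CPM in Alb). The mean difference was -0.34 ± 0.07 (adjusted p = 0.000476, edgeR). Psme2 averaged -0.20 ± 0.06 (adjusted p = 0.0110); the table also lists Psme2b, a near-identical copy at 3.84 to 13.3 CPM that could take some of its reads. Psmc2 averaged -0.17 ± 0.05 (adjusted p = 0.0185).

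**Figure D5:**
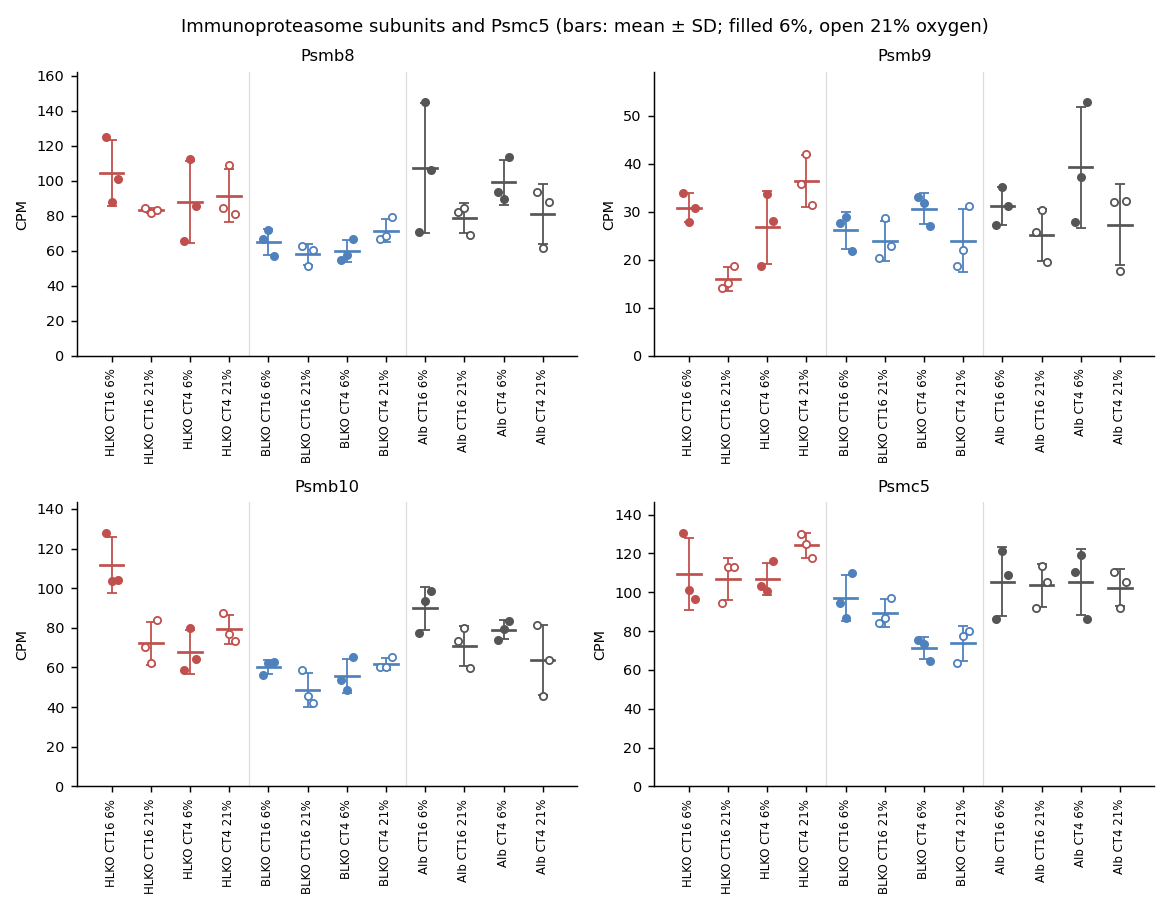
CPM of Psmb8, Psmb9, Psmb10 and Psmc5 (vertical axes, from 0) in 12 groups (horizontal axes); points are libraries (filled 6%, open 21% oxygen), bars the mean ± SD of 3. BLKO values of Psmb8 stay between 51.2 and 79.3 CPM, while Psmb9 in HLKO livers drops to 14.1 to 18.7 CPM at CT16 under 21% oxygen.

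Of 13 tested genes of interferon signalling and antigen presentation, 4 were lower and 1 higher in BLKO livers. The class I heavy chain genes H2-K1 (-0.56, adjusted p = 1.8e-10, edgeR) and H2-D1 (-0.41, adjusted p = 0.00957) were lower. So were the class I transactivator gene Nlrc5 (-0.61, adjusted p = 0.0145, edgeR) and the peptide transporter gene Tap2 (-0.31). The interferon-induced Isg15 was higher in the mean over pairs (0.39), but its direction changed between pairs. It was called lower at CT4 under 6% oxygen and higher at CT16 under 6% and 21%. H2-K1 and H2-D1 are close in sequence and could share reads. Of 8 Kupffer cell markers C1qa (-0.39) and Clec4f (-0.43) were lower in the mean over pairs. By single pairs, Kupffer cell markers were called at CT4 under 6% oxygen alone (4 of 8 lower, median -1.20). Medians were -0.19 at CT4 under 21%, and -0.46 and 0.46 at CT16 under 6% and 21%. The 8 markers summed to 133 to 242 CPM in BLKO livers and 109 to 439 CPM in Alb livers. Their part in the immunoproteasome difference was not tested. Of the NFE2L1 axis Nfe2l1 (-0.37, adjusted p = 6.8e-05) and Maff (-1.26) were lower. The p97 list had 1 of 13 higher, and the partners 1 higher and 1 lower of 19, beside 9.07% of all genes higher and 10.2% lower.

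By single pairs, members called numbered 3 at CT16 under 6% (9.45% of all genes), none at CT16 under 21% (5.38%; 4 at an unadjusted p under 0.05, and 0 by DESeq2), 3 at CT4 under 6% (5.00%) and 2 at CT4 under 21% (7.44%). None of the 8 kept its call in all 6 fits without 1 library. Psmd11, a 19S subunit gene, was the one call upward, at CT16 under 6% (0.54, adjusted p = 0.0323, edgeR), and it held in 1 of 6 such fits.

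The last comparison was CT16 against CT4. In Alb livers 0 of 46 members were called at 6% oxygen (4.41% of all genes; 5 members at an unadjusted p under 0.05) and 0 at 21% (1.27%; 4 such members), and in BLKO livers 0 at 6% (3.35%; 8) and 0 at 21% (2.19%; 3). DESeq2 called 0 in both Alb comparisons and 1 in each BLKO comparison. Under 6% oxygen 38 of 46 members had a positive change in BLKO livers, against 23 each in HLKO and Alb livers. The BLKO median was 0.10 over members and -0.01 over all genes (log2). In HLKO livers 7 members were called at 6% (9.81%) and 5 at 21% (11.9%), and after GC correction 5 (8.95%) and 4 (12.7%). The difference of the time effect from Alb was called for 0 members in HLKO at 6% (1.74% of all genes; 9 at an unadjusted p under 0.05) and at 21% (0.939%; 3), and for 0 members in BLKO at 6% (0.749%; 5) and at 21% (0.749%; 4). DESeq2 called 0 in these 4 as well. The mean over all 6 pairs, added later, called 5 of 46 members higher at CT16, against 10.9% of all genes, and 7 lower, against 10.7% of all genes, with changes from -0.29 to 0.18. Psmb1, Psmd8 and Psme1 were higher and Psmd2 lower in 6 of 6 pairs.

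In HLKO livers the effect of hypoxia on 6 members depended on the time, against 8.64% of all genes (0.232% in Alb and 0.833% in BLKO, with 0 members). The immunoproteasome gene Psmb9 showed it most. At CT16 it had 34.0, 28.0 and 30.7 CPM under 6% oxygen and 14.1, 15.2 and 18.7 CPM under 21%. At CT4 it had 18.7, 33.8 and 28.0 CPM under 6% and 35.9, 42.1 and 31.3 CPM under 21%. All hypoxic livers lay above the controls at CT16, and at CT4 the ranges overlapped with the hypoxic livers mostly lower. The difference between the 2 effects was 1.38 ± 0.35 (adjusted p = 0.0116, edgeR) and was kept in all 12 fits without 1 library (adjusted p up to 0.0451). At 21% oxygen Psmb9 was lower at CT16 than at CT4 in HLKO livers (-1.18 ± 0.25, adjusted p = 0.00160). The same contrast of oxygen and time was -0.24 ± 0.33 in Alb and -0.18 ± 0.34 in BLKO livers, and no test between the genotypes was made of these 3 values.

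Psmb10 moved likewise in HLKO livers, with 128, 103 and 104 CPM under 6% and 70.1, 62.5 and 83.8 CPM under 21% at CT16, without overlap. At CT4 it had 58.8, 80.1 and 64.5 CPM under 6% and 87.6, 76.7 and 73.2 CPM under 21%. The difference between the effects was 0.85 ± 0.23 (adjusted p = 0.0210, edgeR). It was lost without HLKO CT4 6% A, HLKO CT16 21% B or HLKO CT16 6% A (up to 0.0728). Psmg2, a chaperone gene of the core, had a positive difference too (0.79), while Psma1 (-0.95), Psma6 (-0.81) and Psma5 (-0.54) had negative ones. The 3 alpha ring genes were not called after GC correction, and without HLKO CT4 6% A only 1 member was called.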

How the data were processed

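Liver RNA was sequenced in 36 libraries, 3 per group; the 3 double-knockout samples of the 39 in the series are not analysed here. The authors' deposited raw columns hold read counts per gene symbol; per the submitters' processing notes cutadapt, STAR 2.4.2a, HTSeq, DESeq2 and mm10 were used. The deposited normalized signal columns are the raw columns times a constant (largest relative range 9.7e-15) and were not tested. Strand, library type and molecular identifiers are not given in the sources used here.

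Genes were kept by filterByExpr (count minimum 10). TMM scaled the library sizes, and edgeR 4.0.16 (R 4.3.3) fitted the 36 libraries with 1 coefficient per group, for 31 planned comparisons and 4 averages added later, two-sided. Code was tested on simulated data. GC correction, also added later, subtracted per library a loess curve of log2 CPM on the GC percent of the longest transcript (GENCODE M21, 98.4% of genes). Other alternatives were DESeq2 1.42.0, RLE scaling, no filter, compared groups only, a replicate block and leaving out each library. Gene lists covered the NFE2L1 axis, ubiquitin and proteasome partners, p97 and cofactors, interferon and antigen presentation, and liver cell markers. Not every called gene of these lists is reported here. Members and lists were chosen with earlier results of these data known. Named genes were anchors of each role, the called members with the largest changes and up to 4 called genes per list. Replicates differed by more than counting error (chi-square per degree of freedom 3.59 to 29.8). Figures used matplotlib 3.10.9 in Python 3.11.15.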

Additional observations from a re-analysis of the deposited data

Results flagged for a closer look

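In HLKO livers, 6 of 46 members responded to hypoxia differently at CT16 and CT4, against 8.64% of all tested genes. The difference itself was tested, as a contrast of 4 groups in the edgeR fit over all 36 libraries. It is positive where the effect is more upward at CT16. The log2 differences were 1.38 for Psmb9 (adjusted p = 0.0116), 0.85 for Psmb10 (adjusted p = 0.0210), 0.79 for Psmg2 (adjusted p = 0.0419), -0.54 for Psma5 (adjusted p = 0.0404), -0.81 for Psma6 (adjusted p = 0.0376) and -0.95 for Psma1 (adjusted p = 0.0464). Psmb9 kept its call in 12 of 12 fits without 1 library, Psmb10 in 9, Psma1 and Psma6 in 5, Psmg2 in 4 and Psma5 in 2. The 4 groups also differed in the GC trend of their libraries (0.53 in HLKO CT16 6% and 0.15 in HLKO CT16 21%, 0.04 in HLKO CT4 6% and 0.28 in HLKO CT4 21%). After GC correction the adjusted p was 0.0165 for Psmb9, 0.0363 for Psmb10 and 0.00753 for Psmg2, and 0.148, 0.0941 and 0.104 for Psma1, Psma6 and Psma5.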

How the results depend on the processing

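Of 97 called pairs of a member and a comparison, 35 kept their call under every alternative, and of 2298 alternative values of called members 1891 stayed past the threshold, 407 did not and 0 turned sign. Fitting the compared groups only called 0 members for hypoxia in Alb at CT16, 5, 2 and 0 for HLKO against Alb at CT4 21%, CT16 21% and CT16 6%, 0, 1 and 1 for BLKO against Alb at CT4 21%, CT4 6% and CT16 6%, 1 for CT16 against CT4 in HLKO at 6% and 2 for the time dependence of hypoxia in HLKO. The GC correction called 2 for hypoxia in Alb at each time, 1 for hypoxia in BLKO at CT16, 4, 0 and 3 for HLKO against Alb at CT4 21%, CT16 21% and CT16 6%, 1 for BLKO against Alb at CT16 21%, 1 each for CT16 against CT4 in BLKO at 21% and Alb at 6%, and 3 for the time dependence in HLKO. It moved the members' median log2 change to 0.0060 for CT16 against CT4 in HLKO at 6%, 0.058 for the time dependence in HLKO and 0.021 for the HLKO dependence of hypoxia at CT16. Without the filter on low counts HLKO against Alb at CT4 21% had 5 calls and BLKO against Alb at CT4 21% 1. DESeq2 called 2 for HLKO against Alb at CT16 21%, 1 each for CT16 against CT4 in BLKO at 21% and 6%, and 1 for the HLKO dependence of hypoxia at CT4, as RLE scaling did for the last. Plain library totals gave a highest summed level of 5098 CPM. The cause of these shifts was not tested. Replicate letters did not pair the samples: in 0 of 20 comparisons were all same-letter correlations over 0.1, and the replicate block moved 1 count by over 1.5 times, to 1 for BLKO against Alb at CT4 21%.

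Leaving out 1 library at a time gave, as the lowest and highest number of members called, 0 to 1 for hypoxia in Alb at CT4, 0 to 5 for hypoxia in Alb at CT16, 2 to 4 for hypoxia in HLKO at CT4, 0 to 6 for hypoxia in HLKO at CT16, 0 to 1 for hypoxia in BLKO at CT16, 1 to 8 for HLKO against Alb at CT4 21%, 0 to 1 for HLKO against Alb at CT16 21%, 0 to 2 for BLKO against Alb at CT4 21%, 0 to 1 for BLKO against Alb at CT16 21%, 4 to 10 for HLKO against Alb at CT16 6%, 1 to 2 for BLKO against Alb at CT4 6%, 0 to 3 for BLKO against Alb at CT16 6%, 1 to 4 for CT16 against CT4 in HLKO at 21%, 0 to 1 for CT16 against CT4 in Alb at 6%, 3 to 11 for CT16 against CT4 in HLKO at 6%, 1 to 8 for time dependence of hypoxia in HLKO, 0 to 1 for HLKO dependence of hypoxia at CT4, 0 to 5 for HLKO dependence of CT16 against CT4 at 6%, 9 to 13 for mean hypoxia effect over 6 pairs, 12 to 17 for mean of HLKO against Alb over 4 pairs, 5 to 9 for mean of BLKO against Alb over 4 pairs, 9 to 12 for mean CT16 against CT4 over 6 pairs. It gave 0 in every fit for the other 13 comparisons. The members' median log2 change then ran from -0.088 to -0.023 for hypoxia in Alb at CT4, from 0.0064 to 0.068 for hypoxia in Alb at CT16, from 0.024 to 0.076 for hypoxia in HLKO at CT4, from -0.023 to 0.031 for hypoxia in HLKO at CT16, from -0.061 to -0.016 for hypoxia in BLKO at CT4, from 0.013 to 0.067 for hypoxia in BLKO at CT16, from -0.093 to -0.036 for HLKO against Alb at CT4 21%, from -0.083 to -0.047 for HLKO against Alb at CT16 21%, from -0.097 to -0.051 for BLKO against Alb at CT4 21%, from 0.012 to 0.066 for BLKO against Alb at CT16 21%, from -0.071 to -0.027 for HLKO against Alb at CT4 6%, from -0.087 to 0.014 for HLKO against Alb at CT16 6%, from -0.090 to -0.025 for BLKO against Alb at CT4 6%, from 0.031 to 0.071 for BLKO against Alb at CT16 6%, from -0.056 to -0.014 for CT16 against CT4 in Alb at 21%, from -0.098 to -0.0043 for CT16 against CT4 in HLKO at 21%, from 0.055 to 0.094 for CT16 against CT4 in BLKO at 21%, from -0.032 to 0.042 for CT16 against CT4 in Alb at 6%, from -0.091 to 0.025 for CT16 against CT4 in HLKO at 6%, from 0.080 to 0.15 for CT16 against CT4 in BLKO at 6%, from 0.052 to 0.13 for time dependence of hypoxia in Alb, from -0.042 to 0.034 for time dependence of hypoxia in HLKO, from 0.025 to 0.068 for time dependence of hypoxia in BLKO, from -0.0080 to 0.10 for HLKO dependence of hypoxia at CT4, from -0.036 to 0.023 for HLKO dependence of hypoxia at CT16, from -0.024 to 0.044 for BLKO dependence of hypoxia at CT4, from -0.038 to 0.036 for BLKO dependence of hypoxia at CT16, from -0.049 to 0.055 for HLKO dependence of CT16 against CT4 at 21%, from 0.057 to 0.13 for BLKO dependence of CT16 against CT4 at 21%, from -0.086 to -0.024 for HLKO dependence of CT16 against CT4 at 6%, from 0.057 to 0.12 for BLKO dependence of CT16 against CT4 at 6%, from -0.016 to 0.0088 for mean hypoxia effect over 6 pairs, from -0.057 to -0.027 for mean of HLKO against Alb over 4 pairs, from -0.024 to -0.0040 for mean of BLKO against Alb over 4 pairs, from 0.0038 to 0.034 for mean CT16 against CT4 over 6 pairs. Low totals limit the least abundant members, Psmd9, Psmf1 and Psmc6.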
